A study of Mus musculus with 6 samples.

Results

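The Cd209 family of C-type lectin genes was followed in macrophages sorted from 2 adipose tissues of C57BL/6 mice, the omentum (OM) and the mesentery (MY). The rows Cd209a, Cd209b, Cd209c, Cd209d, Cd209e, Cd209f and Cd209g were taken by symbol from the deposited table. All 7 were among its 23946 genes, and no other gene was selected. The family was selected on the naive FPKM values, in which Cd209b had the strongest mesenteric difference of any gene, so the naive differences are given as a description only.

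Cells positive for CD45, CD11b and F4/80 were sorted from dissociated tissue of female C57BL/6 mice of 6 to 8 weeks, and their RNA was sequenced. The mice were untreated (naive), or had received intraperitoneal ID8 cells, a mouse ovarian carcinoma line of the same background, 24 h or 7 d earlier. Each of the 6 conditions had 1 library. No library came from mice injected with vehicle alone, so the ID8 cells and the injection itself cannot be told apart. The study's methods give 9 mice handled as 3 groups, with the omenta of 3 mice pooled per tube, and state 3 such groups for the sequencing. The table nevertheless holds 1 column per tissue and time, and whether a column stands for 1 pool or for several was not settled here. With 1 library per condition no spread between replicates exists, no difference was tested, and every value describes that library. The values are FPKM, fragments scaled by transcript length and by the size of the library, so that levels can be compared between genes. Read counts are not in the table, so the number of fragments behind a single value is not given. The study's methods state a range of reads over the samples, without the depth of each library. Differences are given as log2(FPKM + 1), a scale on which low genes appear to change less than they did, and a gene was called different at 2-fold or more. Genes that reached 1 FPKM in any library were taken as expressed, which 13064 genes and all 7 members were.

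C-type lectins of this family are type II membrane proteins with a calcium-dependent sugar-binding domain at their outer end, and they take up mannose- and fucose-bearing glycans of microbes and host cells. Humans have CD209 (DC-SIGN) and a close relative, whereas the family has expanded in the mouse. The product of Cd209b, SIGNR1, is known as the lectin of splenic marginal zone macrophages and of macrophages in lymph node sinuses, where it binds bacterial capsular polysaccharide and dextran. Cd209a, the mouse gene most often called DC-SIGN, is used as a marker of dendritic cells and of cells that derive from monocytes. Cd209c, Cd209d, Cd209e, Cd209f and Cd209g encode the relatives SIGNR2, SIGNR3, SIGNR4, SIGNR8 and SIGNR7.

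In the GENCODE M1 annotation of NCBIM37, the assembly also called mm9 to which the authors aligned, the 7 genes form a cluster on chromosome 8 from 3743395 to 4137707, a span of 394.3 kb. Their order is Cd209a (3743395 to 3748984), Cd209e (3847965 to 3854309), Cd209d (3871827 to 3878555), Cd209b (3917657 to 3926844), Cd209c (3940222 to 3954746), Cd209f (4102787 to 4105843) and Cd209g (4134733 to 4137707). Cd209g is on the plus strand and the other members are on the minus strand, so that Cd209f and Cd209g point away from each other, with annotated starts 28.89 kb apart. The coding sequences of Cd209f and Cd209g were identical at 89.2% of 581 aligned bases and those of Cd209b and Cd209d at 79.5% of 698, whereas the other 19 pairs lay between 64.7% and 74.8%. Of the windows of 75 bases, the read length, in the annotated coding transcripts, 342 were common to Cd209f and Cd209g, which is 25.9% of those of Cd209f and 33.7% of those of Cd209g. A read within such a window does not by itself tell the genes apart. How the authors' pipeline placed such read pairs was not tested, so the separate levels of Cd209f and Cd209g are uncertain. Cd209a, Cd209b, Cd209d and Cd209e shared 0 windows with any other gene, and Cd209c shared 7 of 1865 with Ccdc79.

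The regions upstream of Cd209f and Cd209g are shown because these genes also had the most similar pattern of FPKM of any pair of members. The part of reads from their shared coding windows in this similarity was not tested. The sequences are RefSeq promoter windows (GRCm38.p6, 250 bases before to 50 after the start), each found at exactly 1 place in the stretch of NCBIM37 chromosome 8 searched, which runs from its start to beyond the cluster. Part of each window is printed, 5′ to 3′ on the strand of the gene, and the 179 bases of Cd209f end inside its annotated span and before its TATA box. Capitals mark the match to TGANTCA, the binding motif of AP-1.
Cd209f (chr8:4105836-4106014, minus strand): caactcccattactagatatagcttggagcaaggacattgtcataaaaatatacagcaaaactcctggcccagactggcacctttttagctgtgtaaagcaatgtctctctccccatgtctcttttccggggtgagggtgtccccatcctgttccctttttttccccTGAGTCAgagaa
Cd209g (chr8:4134486-4134732, plus strand): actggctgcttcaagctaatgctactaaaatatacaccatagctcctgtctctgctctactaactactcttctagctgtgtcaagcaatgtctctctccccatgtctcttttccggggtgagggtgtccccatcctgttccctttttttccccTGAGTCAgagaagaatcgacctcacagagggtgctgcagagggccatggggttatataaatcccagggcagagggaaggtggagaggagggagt
The windows of 300 bases had an identical run of 180 bases, from position -154 to 25 around the start of Cd209f and from position -168 to 11 around that of Cd209g. The best local alignment of these windows held 242 identical bases in 260 columns. In no other pair of members was the identical run longer than 17 bases.

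The region upstream of Cd209b is shown because this gene had the largest difference of the family between the tissues. It held none of the 7 motifs searched and is printed without capitals.
Cd209b (chr8:3926845-3927091, minus strand): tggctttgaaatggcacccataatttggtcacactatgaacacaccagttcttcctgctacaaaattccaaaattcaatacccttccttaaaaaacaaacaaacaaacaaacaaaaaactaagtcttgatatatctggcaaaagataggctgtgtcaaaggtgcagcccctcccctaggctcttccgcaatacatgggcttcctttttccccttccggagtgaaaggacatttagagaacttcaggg
Excerpts of 40 bases are shown for Cd209a, Cd209d and Cd209e because the same 10 bases, a match on the other strand to the composite motif of PU.1 with IRF factors, occurred in all 3. The match is in capitals.
Cd209a (chr8:3748984-3749023, minus strand): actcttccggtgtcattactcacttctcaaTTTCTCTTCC
Cd209d (chr8:3878560-3878599, minus strand): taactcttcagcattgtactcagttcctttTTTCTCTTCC
Cd209e (chr8:3854362-3854401, minus strand): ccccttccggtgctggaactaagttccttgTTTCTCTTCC
The composite motif was present in 2.72% of the 32851 mouse promoter windows, both strands searched. It began at position -9 in Cd209a, -70 in Cd209d and -85 in Cd209e. The longest identical run of each pair of these 3 windows began at the same positions and was of 12 or 14 bases. The 3 matches are therefore not independent of each other. TGANTCA was present in 7.81% of the mouse promoter windows, and of the members only Cd209f and Cd209g held it. The TATA box, as TATAAA (13.6% of windows), was found in Cd209f and Cd209g at positions -29 and -43 and, on the other strand, in Cd209a at position -184. The PU.1 motif (28.3%) was found in Cd209d, the core of the MAF site (19.5%) in Cd209a and Cd209d, and the STAT6 motif (6.95%) in Cd209e, where it overlapped the composite motif. The E box (7.15%) was found in no member. A match describes letters in these windows and was not tested as a binding site.

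Before the members, the libraries were checked against the sort. Ptprc, which encodes CD45, lay between 105.8 and 208.3 FPKM in the 6 libraries, Itgam, which encodes CD11b, between 27.8 and 150.9, and Emr1, the gene of F4/80, between 20.5 and 135.0. All 10 genes of a macrophage list reached 1 FPKM throughout, and their mean log2(FPKM + 1) ran from 5.67 in MY naive to 8.84 in OM 24 h. Genes of other cells were also present. The mean of the neutrophil list was between 9.06 and 10.24 in the omental libraries and between 2.85 and 5.59 in the mesenteric ones, that of the T cell list between 2.22 and 4.09 and between 6.31 and 7.33, and that of the B cell list between 5.73 and 8.37 over all 6. The fibroblast list was at 3.96 to 5.98 in the omentum and at 0.36 to 0.48 in the mesentery, and the mesothelial and epithelial list at 3.52 to 6.24 and at 0.52 to 0.58. The NK cell list was at 0.96 to 4.42 in the omentum and 5.46 to 6.85 in the mesentery, and the monocyte list at 7.48 to 7.78 and 5.86 to 6.04. Lists of type 1 conventional dendritic cells and endothelial cells lay between 3.64 and 4.13 and between 0.76 and 1.84. The part of these cells in the levels of the Cd209 genes was not tested. In RNA from sorted bulk cells, more cells of a type and more RNA per cell cannot be told apart.

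Each tissue had its own leading member. Cd209a was the highest of the 7 in the omentum and Cd209b in the mesentery, at every time point. Of the summed FPKM of the family, Cd209a held 88.2% in OM naive, 57.2% in OM 24 h and 87.2% in OM 7 d, and Cd209b held 87.6%, 93.3% and 93.4% of the mesenteric sum at the 3 times. The sum itself was 299.1, 180.9 and 94.1 FPKM in the omentum and 369.3, 1046 and 490.1 in the mesentery (naive, 24 h and 7 d). The omentum therefore had less total family FPKM at each later time, whereas the mesentery had the most at 24 h.

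**Figure D1:**
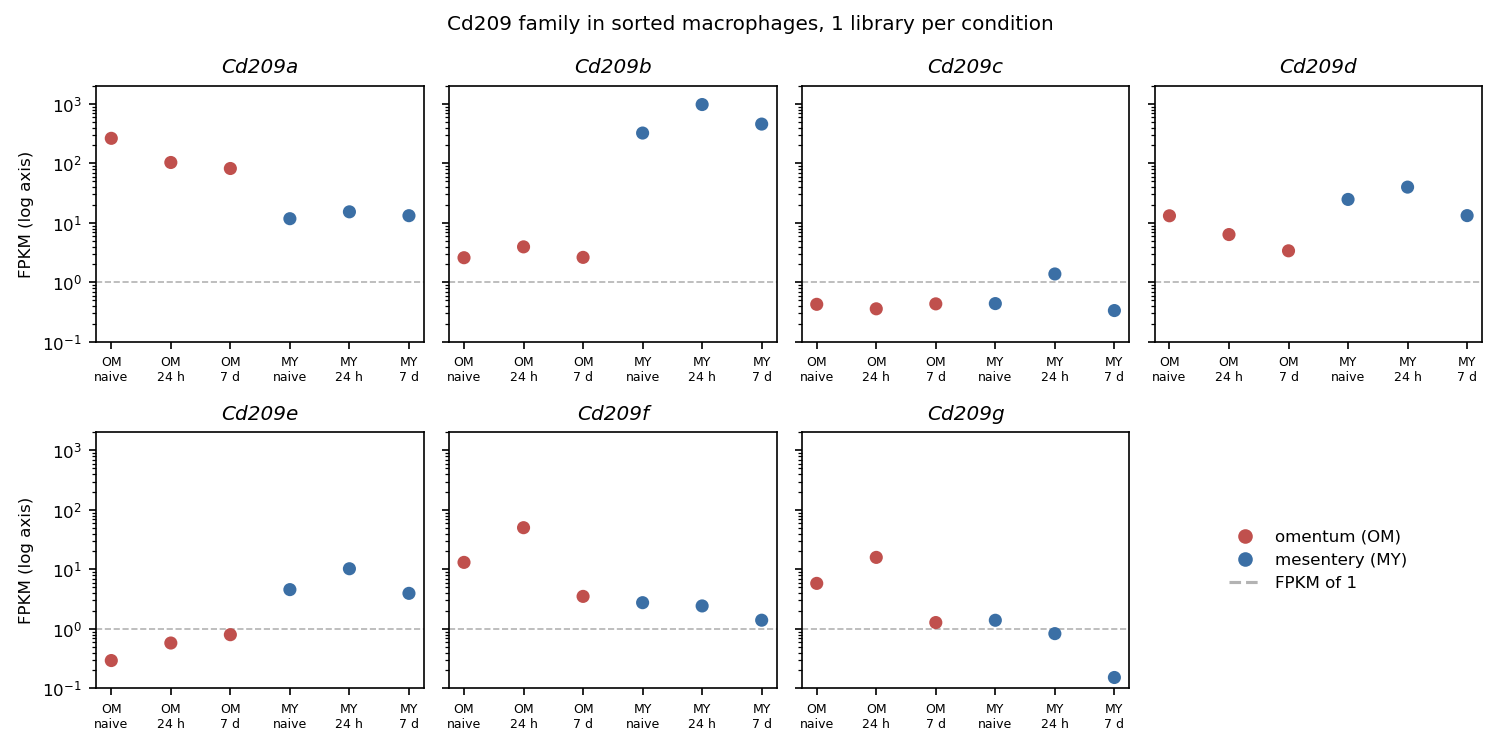
FPKM (log axis) of the 7 Cd209 genes in the 6 libraries, 1 point per library, red for the omentum and blue for the mesentery, with a dashed line at an FPKM of 1. The 3 omental points lie above the 3 mesenteric points for Cd209a and Cd209f and below them for Cd209b, Cd209d and Cd209e.

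**Figure D2:**
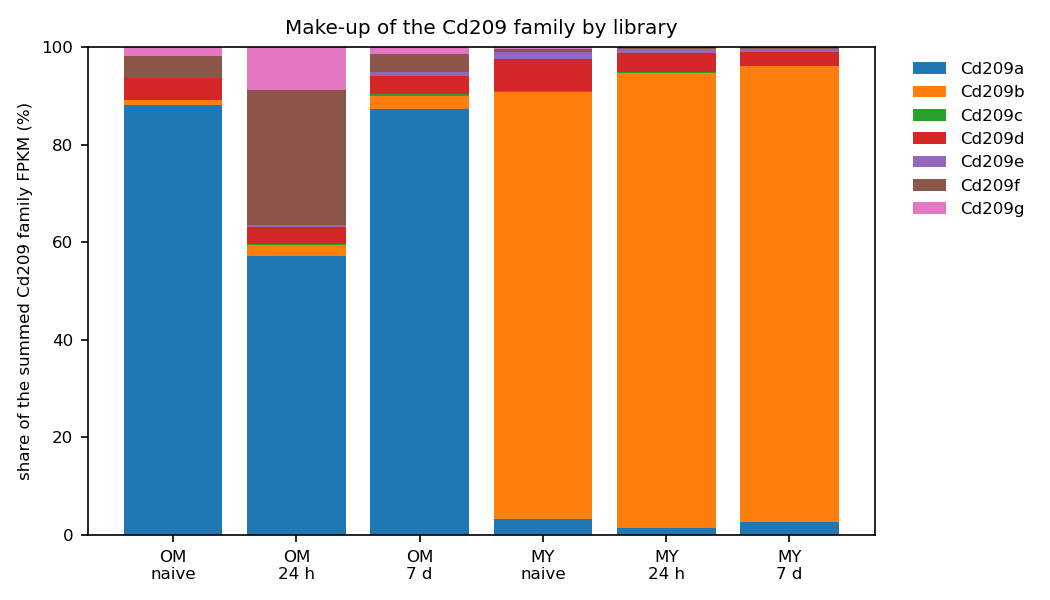
Share of the summed FPKM of the Cd209 family (%) taken by each member in each library. Cd209a takes between 57.2% and 88.2% in the omentum and Cd209b between 87.6% and 93.4% in the mesentery.

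Cd209b, the gene of SIGNR1, stood at 2.59, 3.95 and 2.63 FPKM in the omentum (naive, 24 h and 7 d) and at 323.7, 975.7 and 457.8 FPKM in the mesentery. The lowest mesenteric library thus lay far above the highest omental library, and the ranges did not overlap. Among the 23946 genes it ranked 49 at 24 h in the mesentery, 232 in naive and 138 in 7 d cells, whereas in the omental libraries its rank was between 8951 and 10294. The log2 difference between omentum and mesentery was -6.50 in naive cells, from which the gene was chosen, -7.62 at 24 h and -6.98 at 7 d. The ratio of the FPKM values was 247.1 to the mesentery at 24 h and 174.2 at 7 d.

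Cd209e and Cd209d, the genes next to Cd209b on the side of Cd209a, were also higher in the mesentery. Cd209e stood at 0.293, 0.577 and 0.797 FPKM in the omentum and at 4.57, 10.2 and 3.95 FPKM in the mesentery (naive, 24 h and 7 d). Every omental value was below an FPKM of 1 and every mesenteric value above 3. The log2 difference was -2.11 in naive cells, -2.83 at 24 h and -1.46 at 7 d. With a pseudocount of 5 the naive and 7 d differences became -0.85 and -0.63, which is less than 2-fold, because the values are low.

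Cd209d, the gene of SIGNR3, stood at 13.2, 6.36 and 3.39 FPKM in the omentum and at 24.8, 39.9 and 13.2 FPKM in the mesentery. The ranges just failed to overlap, since OM naive (13.15) and MY 7 d (13.24) were nearly equal. The log2 difference was -0.86 in naive cells, within 2-fold, and -2.47 and -1.70 at 24 h and 7 d. Rescaled to the same sum of FPKM, the naive difference was -1.11 and passed 2-fold. Cd209d was the second member of the family in naive mesenteric cells, with 6.71% of the family's FPKM.

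Cd209a stood at 263.8, 103.5 and 82.0 FPKM in the omentum and at 11.8, 15.3 and 13.2 FPKM in the mesentery. All omental values were above all mesenteric ones. The log2 difference between the tissues was 4.38 in naive cells, 2.68 at 24 h and 2.55 at 7 d, and it narrowed because the omental level was lower after injection. After subtracting the mean of the macrophage list, which was higher in OM 24 h than in MY 24 h, the difference at 24 h was 0.80. The same step gave 3.56 in naive cells and 2.39 at 7 d.

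Cd209f and Cd209g had their highest values in OM 24 h. Cd209f stood at 13.1, 50.2 and 3.51 FPKM in the omentum and at 2.75, 2.43 and 1.40 FPKM in the mesentery, without overlap. Cd209g stood at 5.81, 15.9 and 1.28 FPKM in the omentum and at 1.39, 0.831 and 0.152 FPKM in the mesentery. Its ranges overlapped, since OM 7 d was below MY naive. The log2 difference of Cd209f was 1.91 in naive cells, 3.90 at 24 h and 0.91 at 7 d, and that of Cd209g was 1.51, 3.21 and 0.98. At 7 d both were within 2-fold on this scale, a call that depended on the setting. Adding 0.1 instead of 1 gave 1.27 for Cd209f and 2.45 for Cd209g at 7 d, and rescaling to the same sum gave 1.01 and 1.35. Relative to the mean of the macrophage list, Cd209f was 1.09 in naive cells and 2.02 at 24 h. Cd209g was 0.69, within 2-fold, in naive cells and 1.33 at 24 h on that measure. The ratio of Cd209f to Cd209g was between 1.98 and 3.16 in the 5 libraries other than MY 7 d, where it was 9.18 on values of 1.40 and 0.152. The shared windows described above apply to each of these values.

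Cd209c was close to the limit of expression. It stood at 0.427, 0.359 and 0.435 FPKM in the omentum and at 0.439, 1.38 and 0.335 FPKM in the mesentery, so that it counted as expressed through MY 24 h alone. The tissues overlapped, and the log2 difference at 24 h was -0.81 (-1.69 with a pseudocount of 0.1). No member was listed at 0 in any library.

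Counted over the family, 3 members were at least 2-fold higher and 2 lower in OM naive than in MY naive, against 8.18% and 8.05% of all expressed genes (16.2% in either direction). This comparison led to the choice of the family, so nothing is read from the count. At 24 h, 3 members (Cd209a, Cd209f and Cd209g) were higher in the omentum and 3 (Cd209b, Cd209d and Cd209e) were higher in the mesentery, against 13.9% and 10.2% of genes (24.1% together). At 7 d, Cd209a alone was higher in the omentum (14.1% of genes) and the same 3 were higher in the mesentery (4.99% of genes, 19.1% together). With every library rescaled to the same sum of FPKM, or with a pseudocount of 0.1, 3 members were higher in the omentum at 7 d in place of 1, and with rescaling by the median ratio 2 were. The median of the members was -0.01, -0.81 and 0.10 at the 3 time points, against 0.01, 0.00 and -0.01 over all expressed genes, so the family as a whole had no common direction. For 5 of the 7 members the 3 omental and 3 mesenteric libraries did not overlap, which was also true of 34.4% of the expressed genes. The omentum was above for 2 members, against 16.7% of genes, and below for 3, against 17.7%. These ranges include the naive libraries that led to the choice of the family, so nothing is read from these counts either.

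Along the chromosome the directions were mixed. The 3 genes higher in the mesentery, Cd209e, Cd209d and Cd209b, are consecutive, with gaps of 17.5 and 39.1 kb between them. Cd209a, with the omental direction of Cd209f and Cd209g but at the opposite end of the cluster, lies 99.0 kb before them, Cd209c 13.4 kb after Cd209b, and Cd209f follows after a gap of 148.0 kb. The nearest coding genes on the side of Cd209a are Clec4g, Fcer2a and Trappc5, and on the side of Cd209g Evi5l, 4932443L11Rik and BC068157, of which 4932443L11Rik had no row under this symbol.

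Of these neighbours, Fcer2a, which encodes the low-affinity IgE receptor CD23 of B cells and is itself a C-type lectin, stood at 20.2, 3.03 and 7.31 FPKM in the omentum and at 51.8, 25.9 and 93.0 FPKM in the mesentery. Clec4g, the gene of the lectin LSECtin, was between 0.602 and 2.30 FPKM in the 6 libraries. The log2 difference between the tissues was within 2-fold at every time for Clec4g, Trappc5, Evi5l and BC068157. BC068157 was at most 0.528 FPKM, too low to reach 2-fold on this scale, so nothing is read from its difference.

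**Figure D3:**
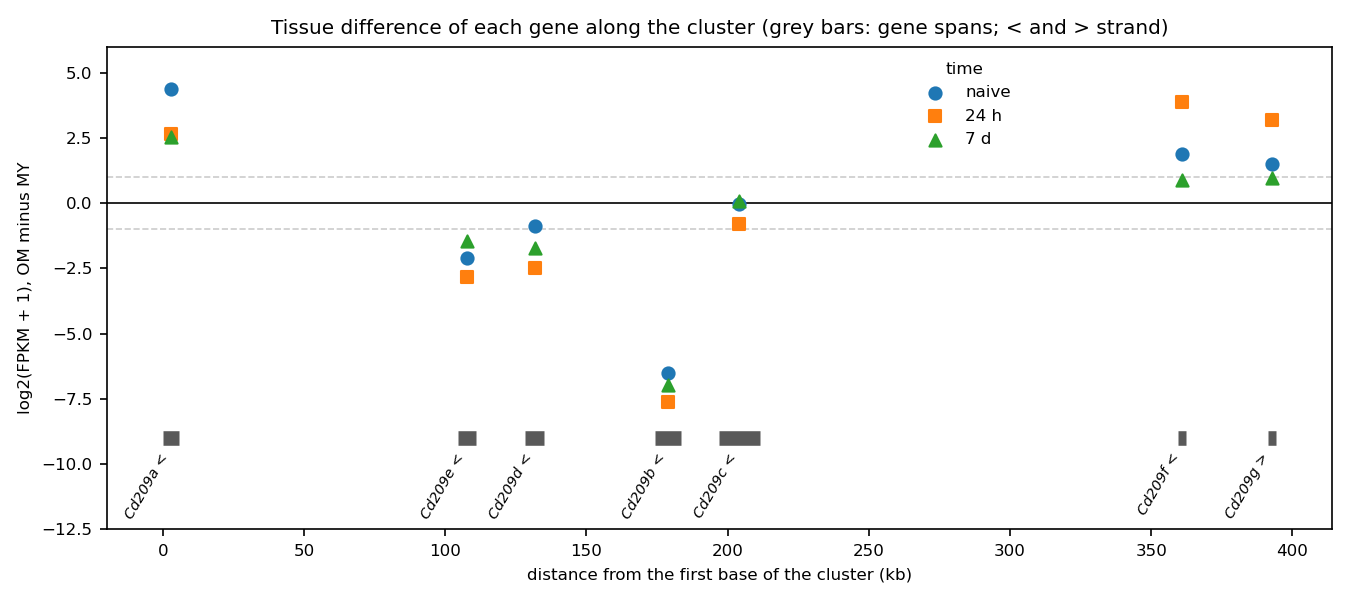
Difference of log2(FPKM + 1), omentum minus mesentery, of each Cd209 gene at 3 times (symbols), placed at its distance in kb from the start of the cluster, with grey bars for the gene spans and arrows for the strand. Cd209e, Cd209d and Cd209b lie below 0 and the genes at both ends, Cd209a, Cd209f and Cd209g, above 0 at each time.

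After injection of ID8 cells the omental members changed in different directions. In OM 24 h against OM naive, Cd209f was 1.86 and Cd209g 1.31 higher on the log2 scale and Cd209a was 1.34 lower (log2 difference -1.34). These were 2 members higher (11.9% of genes) and 1 lower (6.45% of genes), out of 18.3% in either direction, with 4 within 2-fold. Of these 4, Cd209d (-0.94) passed with a pseudocount of 0.1 (-1.04) or rescaled to the same sum (-1.16). Cd209c and Cd209e, at most 0.435 and 0.797 FPKM in the omentum, were too low to reach 2-fold on this scale. All 10 genes of the macrophage list were also at least 2-fold higher in OM 24 h, with a median log2 difference of 2.31, which is more than that of Cd209f or Cd209g. Their part in the change of these members was not tested. OM naive was among the libraries that led to the choice of the family, so nothing is read from the counts against it.

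In OM 7 d against OM naive, 4 members were at least 2-fold lower, against 1.96% of genes, and 0 were higher, where 12.9% of genes passed in either direction. Since OM naive was among the libraries behind the choice of the family, nothing is read from this count. The log2 differences were -1.69 for Cd209d, -1.67 for Cd209a, -1.64 for Cd209f and -1.58 for Cd209g. Cd209b and Cd209c differed by 0.01, and Cd209e, at most 0.797 FPKM, by 0.47. With a pseudocount of 0.1 Cd209e differed by 1.19 and passed 2-fold upward. From 24 h to 7 d, Cd209f was lower by a log2 difference of -3.50 and Cd209g by -2.89, 2 members against 4.52% of genes (11.5% in either direction), and no other member passed 2-fold. All 10 macrophage genes were lower in this last comparison, with a median of -2.45.

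In the mesentery, Cd209b and Cd209e were higher in MY 24 h than in MY naive, by 1.59 and 1.01, which is 2 members against 2.80% of genes (4.32% in either direction). MY naive was among the libraries that led to the choice of the family, so nothing is read from the counts against it, at 24 h or at 7 d. Cd209d was higher by 0.67 and Cd209c by 0.73, within 2-fold, and 0 members were lower (1.52% of genes). Rescaled to the same sum of FPKM, Cd209e no longer passed. Of the macrophage list 8 of 10 genes were at least 2-fold higher as well, with a median of 1.33, and the part of this in the change was not tested. In MY 7 d against MY naive only Cd209g passed 2-fold, with a log2 difference of -1.05 on values of 0.152 and 1.39 FPKM (2.29% of genes lower, 2.79% in either direction). From 24 h to 7 d, Cd209d (-1.52), Cd209e (-1.18) and Cd209b (-1.09) were lower, 3 members against 3.54% of genes (5.37% in either direction). Rescaled to the same sum, Cd209b was just within 2-fold and Cd209c passed instead (-1.07). MY 24 h held the highest mesenteric value of 5 members, Cd209a and Cd209c as well as these 3.

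Genes known from the macrophages in which SIGNR1 was described were higher in the same libraries as Cd209b. Of 8 genes on a list of marginal zone and lymph node sinus macrophages, 6 were at least 2-fold lower in OM naive than in MY naive, 7 at 24 h and 7 at 7 d, with medians of -2.46, -1.65 and -2.73. Marco, a scavenger receptor of marginal zone macrophages, stood at 10.5, 42.3 and 5.17 FPKM in the omentum and at 202.4, 537.3 and 208.1 FPKM in the mesentery. Siglec1, the sialic acid receptor CD169 of sinus macrophages, stood at 2.13, 17.6 and 2.85 and at 18.2, 46.1 and 25.9. Nr1h3, which encodes the nuclear receptor LXR alpha, was at 10.5, 58.3 and 10.3 and at 111.8, 131.6 and 70.4.

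In OM 24 h against OM naive the log2 difference was 1.92 for Marco, 2.57 for Siglec1 and 2.37 for Nr1h3, and 0.46 for Cd209b. Vsig4, the complement receptor CRIg, was at 27.8, 37.2 and 1.53 FPKM in the omentum and at 0.0374 or listed at 0 in the mesentery. It was the only gene of this list at least 2-fold higher in the omentum. Timd4, which is also on the list of resident macrophages below, was within 2-fold in naive cells (0.23). Of 8 genes of lymph node stroma and follicles, Glycam1, an adhesion ligand of high endothelial venules, was at 0.177 FPKM or listed at 0 in the omentum and at 15.4, 55.1 and 6.80 FPKM in the mesentery. The mean of that list was between 1.52 and 1.70 in the omentum and between 1.59 and 2.05 in the mesentery, with Ccl21a listed at 0 in all 6 libraries. Of its 5 expressed genes 2, Cxcl13 and Pdpn, were at least 2-fold higher in the omentum at each time, and 2, 3 and 2 were lower there in naive, 24 h and 7 d cells. All 6 genes of a list of migratory dendritic cells, Ccr7 among them at 93.8, 49.2 and 115.7 FPKM in the omentum and 526.0, 760.7 and 660.5 in the mesentery, were at least 2-fold higher in the mesentery at each time. Whether Cd209b came from cells of a lymph node in the mesenteric tissue was not tested.

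Genes of resident serosal and adipose macrophages followed the tissue direction of Cd209f and Cd209g. Of 10 such genes, 9 were higher in OM naive than in MY naive, 9 at 24 h and 6 at 7 d, and 0, 1 and 1 were lower, with medians of 3.32, 3.91 and 1.68. The lower gene was Timd4, a phosphatidylserine receptor, with log2 differences of -1.46 at 24 h and -2.17 at 7 d. In OM 24 h against OM naive 7 of them were higher and 0 lower (median 1.32), and in OM 7 d against OM naive 1 was higher (Gas6, 2.36) and 8 were lower (median -2.21). Folr2, a folate receptor of resident macrophages, stood at 81.6, 220.0 and 14.5 FPKM in the omentum, Lyve1, a hyaluronan receptor, at 53.5, 55.3 and 5.96 and Cd163, the haptoglobin-haemoglobin receptor, at 18.2, 21.0 and 3.13. In the mesentery these genes were between 1.04 and 25.7 FPKM, and Cd163 was higher there at 7 d (3.77) than in the omentum. The list of large peritoneal macrophages had 2, 3 and 3 of its 7 genes higher in the omentum at the 3 times and 1 lower at each.

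**Figure D4:**
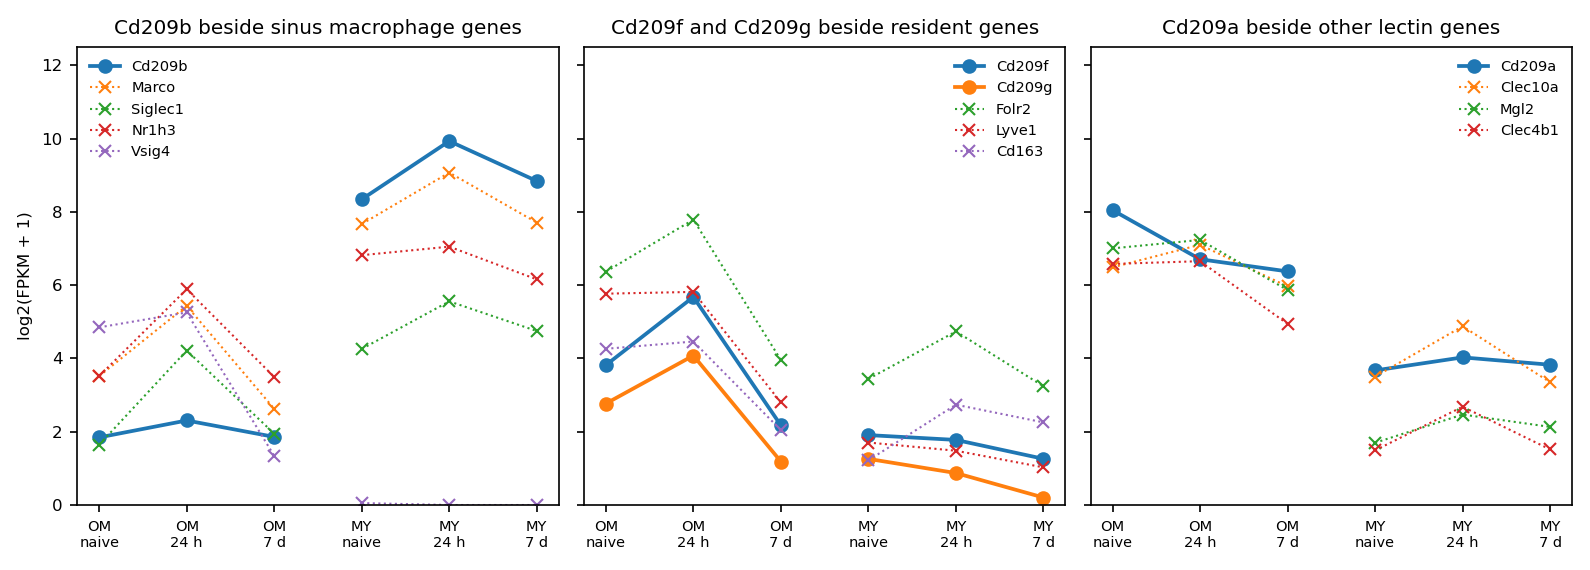
log2(FPKM + 1) by library of Cd209b beside genes of marginal zone and sinus macrophages (left), of Cd209f and Cd209g beside genes of resident macrophages (middle) and of Cd209a beside other lectin genes (right), with lines joining the libraries of a tissue. Cd209b and Marco are higher in all 3 mesenteric libraries, and Cd209f, Cd209g and Folr2 peak in OM 24 h.

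Likeness was measured by the root mean square difference of the centred log2(FPKM + 1) values over the 6 libraries. Among 6110 expressed genes with a range of at least 2-fold, Cd209f and Cd209g were the nearest to each other (0.29). These genes share coding windows of the read length, as described above. The part of reads from such windows in this likeness was not tested. After Cd209g, the genes nearest to Cd209f were Stab1 (0.34), a scavenger receptor, Gdf15 (0.34), Clec4a1 (0.47) and Folr2 (0.48). After Cd209f, those nearest to Cd209g were Spink2 (0.32), Clec4a1 (0.33), Pilrb1 (0.39) and Gdf15 (0.41). Nearest to Cd209b were Apol7c (0.69), Gm8221 (0.82), Tox2 (1.05), Il22ra2 (1.14), which encodes the soluble IL-22 receptor, and Lad1 (1.21). Apol7c stood at 12.1, 8.26 and 14.1 FPKM in the omentum and at 853.3, 1144 and 604.4 FPKM in the mesentery, so that its mesenteric values spanned less than those of Cd209b.

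The remaining members had other neighbours. Nearest to Cd209a were the heat shock gene Hspa1a (0.23), Tppp3 (0.48), Slc27a3 (0.50), Hspa1b (0.51) and Trib1 (0.52). Hspa1a was at 31.2, 7.03 and 8.22 FPKM in the omentum and at 0.459 to 0.494 in the mesentery. Nearest to Cd209d were Dmpk (0.30), Dnase1l3 (0.35), Klrb1a (0.36), Mmp7 (0.37) and Gm5547 (0.38), and nearest to Cd209e Nkpd1 (0.14), Samsn1 (0.16), Ankrd35 (0.19), Strip2 (0.19) and Arhgef10 (0.20). Cd209e and Cd209d were 0.70 apart from each other and 2.47 and 2.76 from Cd209b, whose amplitude was larger. With Pearson correlation or a pseudocount of 0.1 in place of this measure, between 0 and 3 of each 5 genes remained.

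Beyond the family, 22 of 26 other C-type lectin receptor genes were expressed. In OM naive against MY naive 12 of these passed 2-fold upward and 5 downward (median 1.29), at 24 h 13 and 6 (median 1.26) and at 7 d 11 and 4 (median 0.96). The macrophage galactose lectins had the direction of Cd209a, with Mgl2 at 127.4, 149.6 and 57.4 FPKM in the omentum and 2.25, 4.54 and 3.38 in the mesentery, and Clec10a at 88.6, 136.5 and 61.5 and at 10.3, 28.4 and 9.21. From OM naive to OM 24 h they differed by 0.23 and 0.62, within 2-fold, against -1.34 for Cd209a. Clec1b, which encodes the podoplanin receptor CLEC-2, had the direction of Cd209b, at 0.806, 0.250 and 0.255 FPKM in the omentum and 9.37, 21.2 and 13.5 in the mesentery.

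The mannose receptor gene Mrc1 stood at 20.8, 50.5 and 7.13 FPKM in the omentum and at 5.46, 18.5 and 8.60 in the mesentery. Of the 29 lectin genes plotted, Cd209b had the most negative difference between the tissues at each time. In naive cells this was fixed by the choice of the family, so nothing is read from it there. Genes of dendritic cells of the type that derives from monocytes or belongs to type 2, a list that holds Clec10a and Mgl2, had means between 4.76 and 5.44 over the 6 libraries. Of these 10 genes 4 were higher and 2 lower in OM naive than in MY naive, 3 and 4 at 24 h and 2 and 3 at 7 d. Sirpa was higher in the omentum by 1.24 in naive cells and 1.64 at 24 h, and by 0.35, within 2-fold, at 7 d. Cd1d1 (-2.16, -3.33 and -1.95) and Klrd1 (-1.75, -3.15 and -1.13) were lower in the omentum at each time. Flt3 and Zbtb46, genes of conventional dendritic cells, were at 24.6, 10.5 and 17.6 and at 14.0, 7.59 and 16.3 FPKM in the omentum, and at 47.2, 81.5 and 54.8 and at 11.2, 20.3 and 13.7 in the mesentery.

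**Figure D5:**
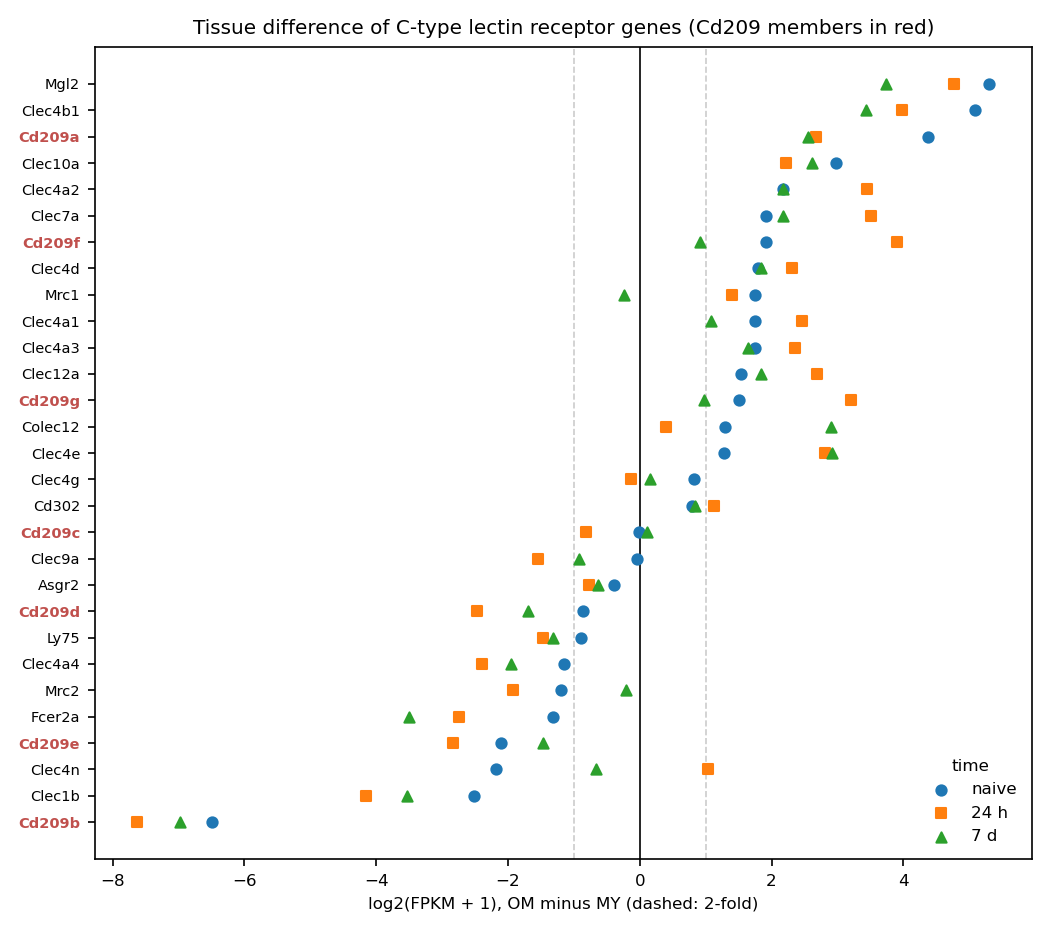
Difference of log2(FPKM + 1), omentum minus mesentery, of the 22 expressed other C-type lectin receptor genes and the 7 Cd209 genes (red names) at 3 times, ordered by the naive difference, with dashed lines at 2-fold. Cd209b is at the far left at each time, which in naive cells was fixed by the choice of the family. In naive cells only Mgl2 and Clec4b1 lie further to the right than Cd209a.

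Most genes through which these lectins signal were within 2-fold between the tissues. Of 13 expressed genes of 14 on the list, 1 was higher and 1 lower in OM naive than in MY naive (median 0.14), 1 and 1 at 24 h (median -0.03) and 1 and 0 at 7 d (median 0.03). Syk, the kinase that acts downstream of several lectins, stood at 180.5, 59.4 and 86.3 FPKM in the omentum and at 54.3, 52.8 and 56.5 in the mesentery. Of the counter-receptors, Icam2 was between 32.1 and 73.9 FPKM and Ceacam1 was at 23.1, 25.0 and 18.2 FPKM in the omentum and 5.06, 9.45 and 8.14 in the mesentery. Icam1 and Itgam brought the counter-receptors to 4 genes, of which 2 were higher in the omentum at each time and 0 lower.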

How the data were processed

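The deposited table gives FPKM per gene symbol in 1 column for each of the 6 libraries. Per the labels and the study's methods, the authors checked reads with FastQC 0.11.4, used STAR 2.4.2a to align read pairs to mm9, and derived FPKM from Cufflinks on the UCSC gene models. No scaling between libraries is visible. FPKM are not counts, so the authors' count test was not repeated, and with 1 library per condition no test was made. A rough relative depth, from the commonest ratio of low values between libraries, ranged from 0.847 (OM naive) to 1.49 (OM 7 d).

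Differences used log2(FPKM + 1), a 2-fold threshold and the 13064 genes that reached 1 FPKM in any library (Python 3.11.15, pandas 2.3.3, numpy 2.4.6, Biopython 1.88, matplotlib 3.10.9). The members and lists were chosen with earlier results of these data known. Named genes were all members, list genes, the 5 genes nearest to each member and the 3 nearest coding genes on either side of the cluster. Positions are from NCBIM37 and GENCODE M1, which matched 20892 of 23946 symbols and all 7 members, and promoters from RefSeq (GRCm38.p6), which held all 7. Protein sequences were not used here. Alternatives were other pseudocounts, scalings, filters and thresholds.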

Additional observations from a re-analysis of the deposited data

Results flagged for a closer look

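Some members changed in opposite directions in the 2 tissues after injection, each against the naive library, in log2(FPKM + 1). The difference between the tissues was not tested, since each value rests on 1 library per condition. At 24 h Cd209d was -0.94 in the omentum and 0.67 in the mesentery, and Cd209a was -1.34 and 0.36. Cd209f was 1.86 and -0.13, and Cd209g 1.31 and -0.39. Cd209c, at 1.38 FPKM or less throughout, was -0.07 and 0.73 at 24 h and 0.01 and -0.11 at 7 d. At 7 d Cd209a was -1.67 and 0.16, and Cd209e was 0.47 and -0.17. Only for Cd209d at 24 h did both changes exceed 1.5-fold.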

How the results depend on the processing

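No paired analysis was possible because the labels give no replicate numbers, and with 1 library each no replicate could be left out. The tissues share the 3 time points, and their mean over these was among the alternatives. The tolerance was 1.5 times for a count and 0.58 for a log2 difference. Of 63 recomputed counts of members called, 51 stayed within this tolerance, and of 280 log2 differences 233 did. No called difference changed sign. With a threshold of 4-fold the counts became 3 (OM naive against MY naive), 2 (OM 7 d against MY 7 d) and 0 in OM 24 h and OM 7 d against OM naive, MY 24 h and MY 7 d against MY naive and MY 7 d against MY 24 h, by construction of a stricter threshold. With a pseudocount of 5 they became 3 (OM naive against MY naive), 1 (MY 24 h against MY naive) and 0 (MY 7 d against MY naive), and with a pseudocount of 0.1 the count was 5 for MY 7 d against MY 24 h. Rescaling each library to the same sum of FPKM left 1 member for MY 24 h against MY naive. That rescaling moved the median of all genes by -0.20 in OM naive and -0.28 in OM 24 h against the mesentery, and by -0.17, 0.13 and 0.31 in OM 24 h against OM naive, OM 7 d against OM naive and OM 7 d against OM 24 h. The naive difference of Cd209b was -5.44 with a pseudocount of 5, -7.18 with the mean of the 3 time points and -7.31 relative to the macrophage list. The number of fragments behind low values, those of Cd209c, Cd209e and Cd209g above all, is not given.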
